A study of Homo sapiens with 12 samples.

Results

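The RNA levels of 10 genes of the interleukin 6 (IL-6) receptor and STAT3 pathway were examined in HepG2 cells, a human hepatocellular carcinoma line. The genes were IL6R, IL6ST, JAK1, JAK2, TYK2, STAT3, SOCS2, SOCS3, PIAS3 and CEBPD. They were taken by gene symbol from the 16389 genes of the count matrix, where all 10 were present, as possible upstream regulators of the acute phase genes measured in the same libraries. The cells were kept for 48 h in medium with 5.5 mM glucose (LG) or 20 mM glucose (HG). VPA (valproic acid, a histone deacetylase inhibitor) was then added at 1 mM for 12 h in the LGV and HGV groups, while LG and HG stayed untreated. Each group held 3 libraries, and all groups were the same line at passage 9, with no genetic change or added cytokine named in the labels. The labels name no medium with an osmotic control sugar. Whether the untreated cells were harvested together with the VPA-treated ones is not stated, so that time in culture and VPA cannot be told apart where the harvests differed.

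IL-6 is a cytokine that drives the acute phase response of the liver. It binds its receptor IL6R, and the complex joins the shared signalling chain gp130, encoded by IL6ST. The kinases JAK1, JAK2 and TYK2 sit on gp130 and phosphorylate STAT3, which enters the nucleus and switches on acute phase genes together with C/EBP factors such as that encoded by CEBPD. SOCS3, itself switched on by STAT3, blocks gp130 and the kinases in a negative feedback loop, SOCS2 restrains growth hormone signalling and PIAS3 inhibits STAT3 in the nucleus. In the counts only RNA was measured, and neither protein nor phosphorylation.

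Promoter sequence was read from the 250 bases before the start of the main transcript on GRCh37. The STAT binding pattern searched was TTCNNNGAA, which reads the same on both strands and was found in 662 of 13154 protein-coding genes of the matrix (5.03%). The narrower form TTCCNGGAA, which is contained in the wider pattern, was found in 142 promoters (1.08%). The C/EBP pattern TTGCNNAA, searched on both strands, was in none of the 10 genes (0) and in 757 of all promoters (5.75%).

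The STAT pattern, in capitals, is given next with up to 10 bases on each side for the feedback inhibitor CISH (the match closest to its start among 4) and for the 4 acute phase genes of 18 whose promoter window held it, which are the hepatic genes compared with the pathway further on. It was also held by 2 of 8 genes that fall in the acute phase response and by 4 of 19 nuclear partners and early targets of STAT3. Among gp130 family cytokines and co-receptors 1 of 11 held it, and among other SOCS, PIAS and phosphatase genes 1 of 12, which is CISH. Of the other JAK and STAT genes 0 of 6 held it, and of adaptors and receptor-shedding proteases 0 of 9. A match describes letters only, and binding of STAT3 was not measured.
CISH chr3:50649299-50649327, minus strand: aagacgctgcTTCCGGGAAgggctggaac
AGT chr1:230850020-230850048, minus strand: tcactaagacTTCCTGGAAgaggtcccag
CFB chr6:31913770-31913798, plus strand: cgcttggatgTTCCGGGAAagtgatgtgg
FGA chr4:155512107-155512135, minus strand: agccaccctgTTCCTGGAAtgtgagatct
HAMP chr19:35773328-35773356, plus strand: cgccaccaccTTCTTGGAAatgagacaga

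Total counts ran from 29798442 to 45572694 per library, and 3 reads corresponded to 0.0713 to 0.112 CPM (counts scaled to a common library size with TMM factors). The hepatocyte markers ALB, AFP, APOA1, APOB, TTR, HNF4A, FGB and TF were all present and summed to 34482 to 54059 CPM, and the LGV libraries (34482 to 35434) lay below those of all other groups. Over the markers of other cell types that were measured, 3 of 4 biliary genes summed to 442 to 626 CPM, 3 of 6 fibroblast genes to 43.7 to 78.0 and 2 of 5 endothelial genes to 2.21 to 4.85. The 3 of 6 leukocyte genes summed to 909 to 1549 CPM, nearly all of it from LYZ, which encodes secreted lysozyme. PTPRC, CD68 and CD3E are not among the symbols of the count matrix, which leaves out genes averaging under 10 reads per library. The leukocyte sum was highest in HGV (1436 to 1549), and its part in the results was not tested. Of all genes tested, 24.7% passed an FDR of 0.05 in HG against LG, 40.7% in HGV against LGV, 41.6% in LGV against LG and 46.1% in HGV against HG. Those that passed as higher and as lower were 12% and 12.7% in HG against LG, 21.2% and 19.5% in HGV against LGV, 21.7% and 19.9% in LGV against LG, 25.8% and 20.2% in HGV against HG, and 0.0244% and 0.0183% for the interaction. In bulk RNA, fewer cells expressing a gene and less RNA per cell cannot be told apart. The labels do not say that the replicates were separate cultures, and p-values measure the spread between these libraries, which may be technical. LG replicate 3 and HGV replicate 3 stood apart from their groups in several acute phase genes. Values without them are given for HP and SERPINA3, in part for HAMP and AGT, and where a call of the 10 genes turns on them. FGA, in which both also stood apart, is given with all libraries only.

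Across the 4 groups, IL6ST, JAK1, JAK2, STAT3, SOCS2 and PIAS3 passed the test in no comparison, and the kinase gene TYK2 passed in 1. The receptor gene IL6R was lower with VPA, the feedback gene SOCS3 was higher with glucose and, in high glucose, lower with VPA, and CEBPD was higher with glucose and lower with VPA. In the plot of the 10 genes by library, IL6R, SOCS3 and CEBPD are the 3 panels with the widest separation of groups.

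**Figure D1:**
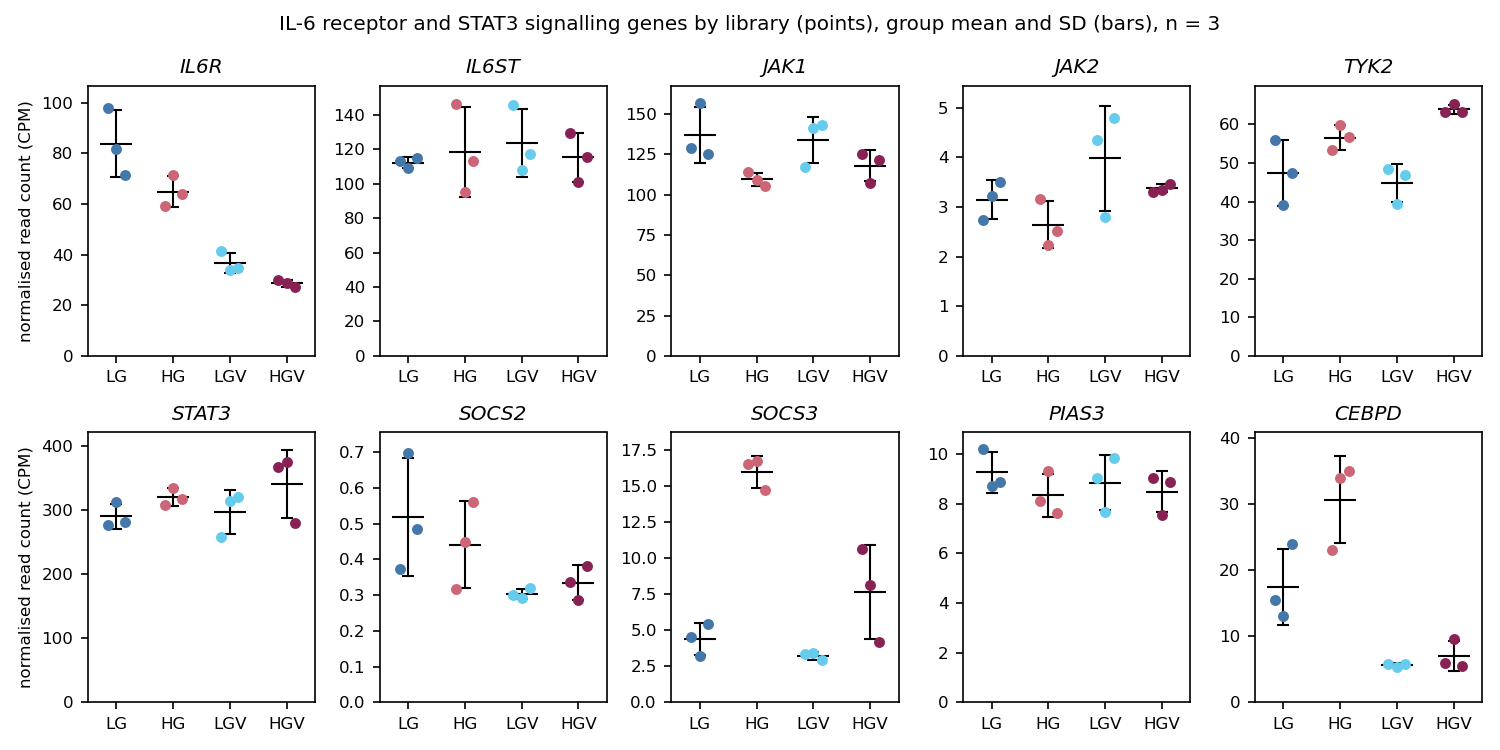
Normalised read count in CPM (y axes, from 0) of the 10 genes in each library of LG, HG, LGV and HGV. Points are libraries, the horizontal line is the group mean and the bars are 1 SD (n = 3); IL6R falls to 27.3 to 41.3 CPM in the VPA groups from 59.4 to 98.0 CPM without VPA, and SOCS3 is highest in HG at 14.7 to 16.7 CPM.

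Levels between genes were compared per kilobase of exon (CPM per kb, over the union of a gene's exons). STAT3 was the most abundant of the 10 in all groups, at 25.9 CPM per kb in LG, 28.6 in HG and 30.5 in HGV. In LG it was followed by CEBPD (14.0), IL6R (12.0), JAK1 (10.4), IL6ST (9.31) and TYK2 (5.57), and the neighbours from CEBPD to IL6ST overlapped between libraries. PIAS3 (1.93) and SOCS3 (1.60) came next and overlapped as well, and JAK2 (0.398) and SOCS2 (0.0802) were lowest. The order moved with the groups. CEBPD stood at 24.5 CPM per kb in HG, close to STAT3 (28.6), and at 5.61 in HGV, below TYK2 (7.50). SOCS3 stood above PIAS3 in every HG library, with 5.38 to 6.11 CPM per kb against 1.58 to 1.94. With the length of the main transcript in place of the exon union, JAK1 was the gene next to STAT3 in LG, so that the order of the middle genes depends on the length used. In HG that length put STAT3 at 65.2 and CEBPD at 24.5 CPM per kb, so that their closeness depends on it too.

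**Figure D2:**
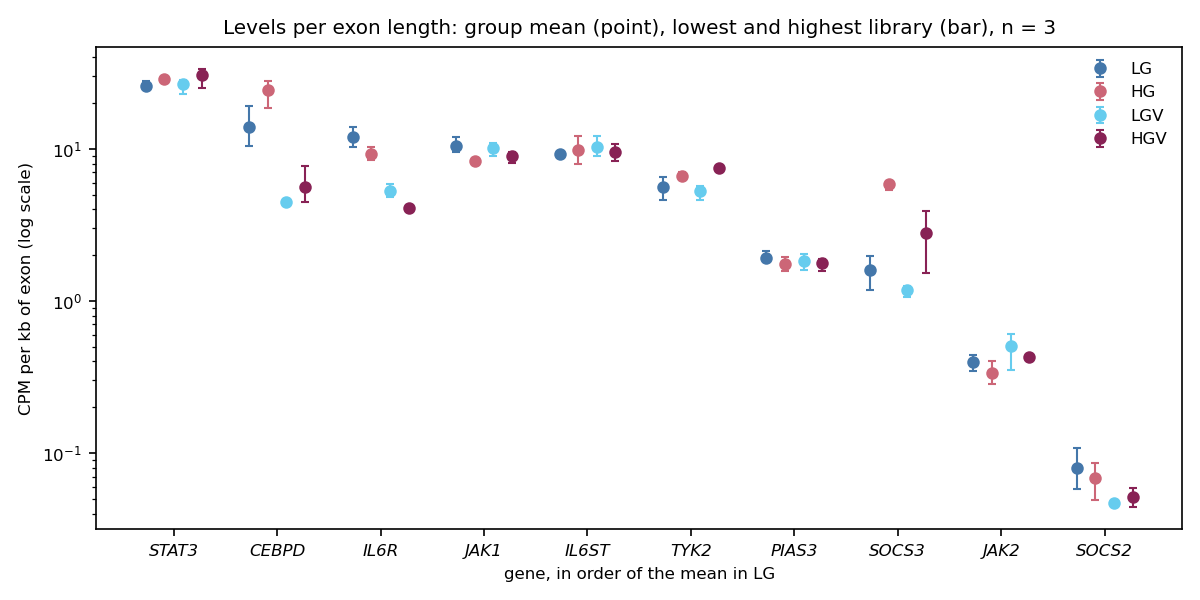
Level of the 10 genes in CPM per kb of exon (y axis, log scale), in order of the LG mean. Points are group means and bars run from the lowest to the highest library (n = 3); STAT3 stays at 25.9 to 30.5 CPM per kb, whereas CEBPD, IL6R and SOCS3 shift between groups.

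No IL-6 ligand level is given, since IL6 itself is not analysed here. IL6R (ENSG00000160712, chromosome 1, 154377669 to 154441926, plus strand), the receptor chain that binds IL-6, had 98.0, 81.9 and 71.7 CPM in the LG libraries and 59.4, 71.6 and 63.8 CPM in HG. With VPA it had 41.3, 34.0 and 34.9 CPM in LGV and 30.0, 28.9 and 27.3 CPM in HGV. All 6 libraries with VPA lay below all 6 without. The mean was 83.9 ± 13.3 CPM in LG, 64.9 ± 6.17 in HG, 36.7 ± 3.98 in LGV and 28.7 ± 1.35 in HGV (SD, n = 3). VPA lowered IL6R by the same fitted amount in either glucose, with a log2 fold change of -1.18 in LGV against LG (95% interval -1.47 to -0.89, edgeR quasi-likelihood test, adjusted p = 8.56e-06) and of -1.18 in HGV against HG (-1.42 to -0.94, adjusted p = 3.26e-06). The difference between these effects was 0.01 (95% interval -0.37 to 0.39, adjusted p = 0.991).

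Higher glucose went with slightly less IL6R RNA. In HG against LG the difference was -0.34 (95% interval -0.63 to -0.06) and did not pass the test (adjusted p = 0.0719), although the groups did not overlap. In edgeR fits without 1 library each the difference ran from -0.44 to -0.20, with adjusted p up to 0.354. It passed in 1 of 6, without LG replicate 3 (-0.44, adjusted p = 0.0168). In HGV against LGV it was -0.37 (-0.63 to -0.11) and passed (adjusted p = 0.0225), but this call was lost without HGV replicate 3 (-0.34, adjusted p = 0.0805), LGV replicate 1 (-0.28, adjusted p = 0.0722) or LGV replicate 3 (-0.41, adjusted p = 0.0515), and with scaling by library size only (-0.29, adjusted p = 0.104).

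IL6ST (ENSG00000134352, chromosome 5, 55230923 to 55290850, minus strand), the gp130 chain shared by the cytokines of the family, had 113, 109 and 115 CPM in LG, 147, 95.2 and 113 in HG, 146, 108 and 118 in LGV and 129, 101 and 116 in HGV. The libraries of all groups overlapped, and the widest 95% interval of its log2 fold change, in HGV against HG, ran from -0.37 to 0.29. The ratio of IL6ST to IL6R per kb of exon was 0.669 to 0.929 in the LG libraries and 0.771 to 1.43 in HG, and it was 1.84 to 2.05 in LGV and 2.03 to 2.50 in HGV. More receptor than gp130 RNA per kb was thus seen in every LG library, and more gp130 than receptor RNA in every library with VPA. With the length of the main transcript the LG levels overlapped, at 12.4 to 17.0 CPM per kb for IL6R and 12.1 to 12.7 for IL6ST.

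Of the kinases, only TYK2 passed the test, and in a single comparison. TYK2 (ENSG00000105397, chromosome 19, 10461209 to 10491284, minus strand) had 56.0, 39.0 and 47.4 CPM in LG, 53.4, 59.8 and 56.7 in HG, 48.3, 39.3 and 46.8 in LGV and 63.1, 65.3 and 63.3 in HGV. All HGV libraries lay above all LGV libraries, and the log2 fold change was 0.49 (95% interval 0.24 to 0.74, edgeR quasi-likelihood test, adjusted p = 0.00329). In HG against LG it was 0.28 (-0.01 to 0.57, adjusted p = 0.152), with LG replicate 1 inside the HG range. TYK2 in HGV against HG differed by 0.17 (adjusted p = 0.166), and scaling by library size only made this 0.30 (adjusted p = 0.0247).

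JAK1 (ENSG00000162434, chromosome 1, 65298906 to 65533437, minus strand), the kinase that gp130 signalling chiefly needs, had 129, 157 and 125 CPM in LG and 114, 109 and 105 in HG. The HG libraries lay below the LG libraries, but the difference of -0.30 (95% interval -0.56 to -0.04) did not pass the test (adjusted p = 0.0825). In edgeR fits without 1 library each it ran from -0.36 to -0.17, with adjusted p up to 0.352. It passed in 1 of 6, without LG replicate 3 (-0.36, adjusted p = 0.0328). JAK1 had 117 to 143 CPM in LGV and 107 to 125 CPM in HGV, which overlapped with each other. JAK2 (ENSG00000096968, chromosome 9, 4984390 to 5129948, plus strand) was scarce, at 2.24 to 4.80 CPM over the 12 libraries. Its HGV libraries (3.31 to 3.47) lay above those of HG (2.24 to 3.17), with a difference of 0.35 that did not pass (95% interval -0.05 to 0.76, adjusted p = 0.143).

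STAT3 (ENSG00000168610, chromosome 17, 40465342 to 40540558, minus strand), the transcription factor of the pathway, varied little. It had 277, 313 and 281 CPM in LG, 309, 335 and 318 in HG, 258, 315 and 320 in LGV and 368, 376 and 281 in HGV. The groups overlapped in every comparison. Its log2 fold change was 0.16 in HG against LG (95% interval -0.08 to 0.41), 0.18 in HGV against LGV (-0.12 to 0.48), 0.05 in LGV against LG (-0.22 to 0.31) and 0.09 in HGV against HG (-0.17 to 0.36). All 4 intervals lay between -0.22 and 0.48.

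SOCS3 (ENSG00000184557, chromosome 17, 76352859 to 76356158, minus strand), the feedback inhibitor, had the largest change of the 10 genes with glucose. It had 4.52, 3.22 and 5.41 CPM in LG and 16.5, 16.7 and 14.7 CPM in HG. It had 3.33, 3.44 and 2.91 CPM in LGV and 10.6, 8.13 and 4.18 CPM in HGV. Every HG library lay above every library of the other groups. The mean was 3.65-fold higher in HG than in LG (16.0 ± 1.12 against 4.39 ± 1.10 CPM, SD, n = 3), with a log2 fold change of 1.89 (95% interval 1.48 to 2.30, edgeR quasi-likelihood test, adjusted p = 2.28e-06). With VPA present the effect of glucose was 1.23 (0.69 to 1.77, adjusted p = 0.00110), or 1.52 (adjusted p = 1.79e-05) without HGV replicate 3, which at 4.18 CPM was the lowest of its group.

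VPA lowered SOCS3 in high glucose, by a log2 fold change of -1.07 (95% interval -1.61 to -0.53, adjusted p = 0.00370) and of -0.77 without HGV replicate 3 (adjusted p = 0.00331). In low glucose the difference was -0.43 (-0.93 to 0.06, adjusted p = 0.152). In edgeR fits without 1 library each it ran from -0.62 to -0.23, with adjusted p up to 0.496. It passed in 1 of 6, without LG replicate 2 (-0.62, adjusted p = 0.0318). The difference between these VPA effects was -0.62 (95% interval -1.36 to 0.11), and it did not pass the test (adjusted p = 0.528). The HGV mean of 7.64 ± 3.24 CPM may be set beside the LG mean of 4.39 ± 1.10 CPM, a pair for which no test was planned, and HGV replicate 3 lay inside the LG range of 3.22 to 5.41. HG against LG shares its HG libraries with HGV against HG, so that these values are not independent of each other.

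SOCS2 (ENSG00000120833, chromosome 12, 93963590 to 93977263, plus strand) rested on 9 to 28 reads per library and passed in no comparison. Its level was 0.374 to 0.699 CPM in LG and 0.292 to 0.320 in LGV, which did not overlap, with a log2 fold change of -0.78 (95% interval -1.61 to 0.06, adjusted p = 0.128). PIAS3 (ENSG00000131788, chromosome 1, 145575233 to 145586546, plus strand), the nuclear inhibitor of STAT3, stayed at 7.56 to 10.2 CPM over all libraries, and its groups overlapped in every comparison. Of the exon bases of PIAS3, 9.01% are shared with NUDT17 on the opposite strand, and it is not stated whether the counting used the strand.

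CEBPD (ENSG00000221869, chromosome 8, 48649475 to 48650726, minus strand) encodes C/EBP delta, a factor that acts beside STAT3 on acute phase promoters and is itself inducible by IL-6. It had 15.5, 13.0 and 24.0 CPM in LG, 23.1, 34.0 and 34.9 in HG, 5.76, 5.33 and 5.82 in LGV and 5.92, 9.61 and 5.56 in HGV. All libraries with VPA lay below all libraries without, whereas LG and HG overlapped, as LG replicate 3 exceeded HG replicate 1. VPA lowered CEBPD by a log2 fold change of -1.63 in low glucose (95% interval -2.09 to -1.17, edgeR quasi-likelihood test, adjusted p = 3.05e-05) and of -2.12 in high glucose (-2.59 to -1.65, adjusted p = 7.02e-06). The latter corresponds to a mean 4.37-fold lower in HGV than in HG.

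CEBPD was 1.75-fold higher in HG than in LG (30.7 ± 6.57 against 17.5 ± 5.75 CPM, SD, n = 3), with a log2 fold change of 0.83 (95% interval 0.40 to 1.26, adjusted p = 0.00684). Without LG replicate 3 the change was 1.14 (adjusted p = 0.000136), and without LG replicate 1 it was 0.77 and no longer passed (adjusted p = 0.0569). In the presence of VPA the glucose difference was 0.30 (-0.12 to 0.73) and did not pass (adjusted p = 0.244). The interaction of glucose and VPA was -0.48 (-1.15 to 0.18, adjusted p = 0.601), so a glucose effect that differs with VPA was not shown.

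Counted over the 10 genes, 2 passed in HG against LG (24.7% of all genes tested passed), with 3 of the 10 not overlapping between groups (41.2% of all). In HGV against HG 3 passed (46.1% of all) and 5 did not overlap (54.6% of all), and in LGV against LG 2 passed (41.6% of all) and 3 did not overlap (50.5% of all). In HGV against LGV 3 passed (40.7% of all) and 3 did not overlap (51.4% of all). The share of the 10 genes that passed was thus no higher than that of all genes in any of these comparisons, and the median log2 fold change of the 10 was -0.02 in HG against LG, -0.01 in HGV against HG, -0.06 in LGV against LG and 0.01 in HGV against LGV, beside 0.01, 0.02, -0.01 and 0.01 over all genes. For the interaction, 0 of the 10 passed edgeR's quasi-likelihood test, 0 had an unadjusted p under 0.05 and 0 passed with DESeq2, with 0.0427% of all genes passing in edgeR.

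**Figure D3:**
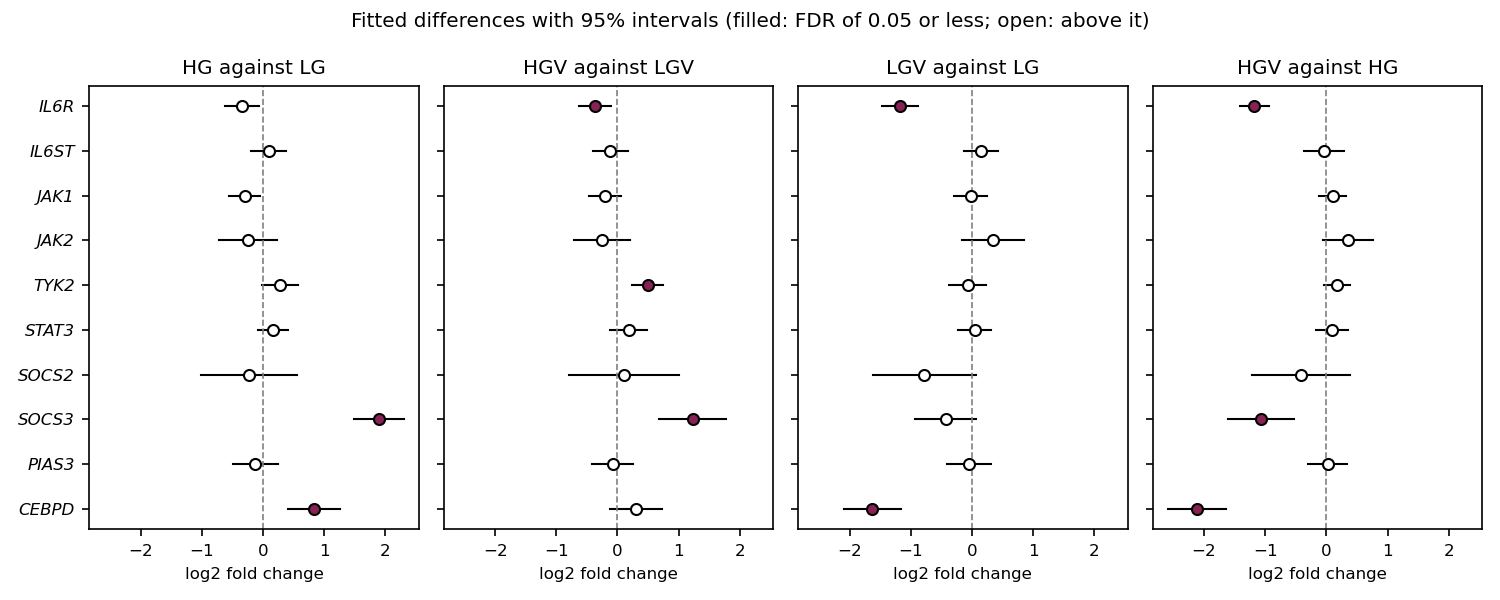
Log2 fold changes (x axis) of the 10 genes with 95% intervals from the edgeR fit, in a panel for each comparison (n = 3 libraries per group). Filled points passed an FDR of 0.05; SOCS3 lies at 1.89 in HG against LG, and IL6R at -1.18 in both VPA comparisons.

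The genes around the 10 were taken in lists by role. Of 16 gp130 family cytokines and co-receptors, 11 were measured, and 1 rose and 1 fell in HG against LG, 3 rose and 5 fell in HGV against LGV, 2 rose and 2 fell in LGV against LG, and 4 rose and 4 fell in HGV against HG. EBI3, a shared subunit of IL-27 and IL-35, rose by 1.41 on the log2 scale in HG against LG and by 1.40 in HGV against LGV, from 5 to 17 reads in the LG libraries. IL11, a gp130 cytokine, and IL11RA, its receptor, rose with VPA by 0.58 and 0.82 in low glucose and by 1.04 and 0.98 in high glucose. Exons of IL11RA overlap over 32.5% of their length with a gene annotated on the same strand that is not in the matrix. LIF, a cytokine that signals through its own receptor and gp130, fell by 1.15 in HGV against HG and differed by -0.24 in LGV against LG (adjusted p = 0.408), with an interaction of -0.89 that did not pass (adjusted p = 0.227).

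Of the other JAK and STAT genes, 6 of 7 were measured. JAK3, a kinase known chiefly from lymphocytes, moved with glucose and with VPA. It had 31.0, 25.9 and 39.2 CPM in LG, 59.8, 65.6 and 59.4 in HG, 12.4, 9.00 and 13.7 in LGV and 28.1, 23.9 and 15.6 in HGV. It rose by 0.97 in HG against LG (adjusted p = 0.000175) and by 0.92 in HGV against LGV (adjusted p = 0.00106), and it fell by 1.44 in LGV against LG and by 1.45 in HGV against HG. STAT6, the factor of IL-4 signalling, fell with VPA by 1.15 in low glucose and by 1.19 in high glucose. STAT5B rose by 0.44 in HG against LG and by 0.56 in HGV against LGV. The number of these genes that rose in HG against LG, 2 with JAK3 and STAT5B, turned on single libraries. It was 1 without HG replicate 2, HG replicate 3 or LG replicate 2, and 3 without LG replicate 3. Exons of STAT5B overlap with those of STAT5A over 3.43% of their length.

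Of 15 other SOCS, PIAS and phosphatase genes, 13 were measured, and 2 rose and 2 fell in HG against LG, 3 rose and 4 fell in HGV against LGV, 1 rose and 5 fell in LGV against LG, and 1 rose and 4 fell in HGV against HG. CISH, the STAT5-inducible relative of SOCS3 whose promoter pattern is shown above, had 2.73, 1.50 and 2.99 CPM in LG, 3.93, 3.68 and 4.31 in HG, 0.774 to 1.23 in LGV and 0.735 to 1.17 in HGV. It rose by 0.75 in HG against LG (adjusted p = 0.0339) and fell with VPA by 1.34 in low and by 2.04 in high glucose. Its rise with glucose no longer passed without HG replicate 2, HG replicate 3 or LG replicate 2. In the VPA groups its glucose difference was 0.03 (95% interval -0.64 to 0.69), and the interaction of -0.69 did not pass (adjusted p = 0.544). SOCS1, an inhibitor of JAK kinases, fell by 1.04 in LGV against LG and rose by 1.24 in HGV against LGV, whereas SOCS5 fell by 0.88 in HG against LG and by 1.26 in HGV against LGV.

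Of 20 nuclear partners and early targets of STAT3, 19 were measured. In HG against LG 0 rose in edgeR's test (0 with DESeq2, and 1 with an unadjusted p under 0.05) and 5 fell, among them TIMP1, a protease inhibitor (-0.77), PIM3 (-0.68), BCL2L1 (-0.51) and the immediate early gene FOS (-0.80). The number that fell turned on single libraries. It was 1 without LG replicate 1, 9 without LG replicate 3, and 3 or 4 without any other library. In HGV against LGV 1 rose and 6 fell, with CEBPA, which encodes C/EBP alpha, at 0.68. VPA went with changes in either direction, with 3 up and 5 down in LGV against LG and 6 up and 5 down in HGV against HG. FOS rose by 1.33 and 1.89 and PIM2 by 1.06 and 1.19 in low and high glucose, while BCL3, a partner of NF-kB, fell by 0.84 and 1.11. CEBPB, the C/EBP factor first known for IL-6 responses, passed in none of the 4 comparisons and had group means of 210 to 255 CPM.

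The acute phase genes that IL-6 is known to induce mostly rose with glucose and fell with VPA. Of 22 listed genes 18 were measured. In HG against LG 12 rose and 0 fell (median log2 fold change 0.69, beside 0.01 over all genes), and in HGV against LGV 13 rose and 2 fell (0.79, beside 0.01). In LGV against LG 0 rose and 16 of 17 fell (-0.93, beside -0.01), and in HGV against HG 1 rose and 15 fell (-0.83, beside 0.02). With an unadjusted p under 0.05, 0 were lower in HG against LG and 0 were higher in LGV against LG. DESeq2 likewise called 0 as lower in the former, where 12 were higher, and 0 as higher in the latter, where 16 were lower. Without LG replicate 3, 13 rose in HG against LG and 16 fell in LGV against LG, and without HGV replicate 3, 12 fell in HGV against HG and 12 rose in HGV against LGV. The lowest counts were 10 that rose in HG against LG, without LG replicate 1, and 11 that fell in HGV against HG, without HG replicate 3. The general hepatocyte markers moved in part alike, with 5 of 8 lower in LGV against LG (median -0.51, HNF4A at -0.73 and APOB at -0.60), 4 of 8 higher in HGV against LGV (median 0.42), 2 higher in HG against LG and 1 higher and 2 lower in HGV against HG, and their part in the result was not tested. FGB stands in both lists. The acute phase list was chosen with the complement and clotting results of these libraries known and is no independent evidence of a direction.

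Haptoglobin (HP), a haemoglobin scavenger, had 71.1, 75.5 and 237 CPM in LG, 504, 552 and 595 in HG, 13.7, 24.9 and 18.5 in LGV and 144, 182 and 64.8 in HGV. It rose by 2.13 in HG against LG (adjusted p = 7.95e-05) and fell by 2.08 in HGV against HG (adjusted p = 5.74e-05). Without LG replicate 3 the rise was 2.93 (adjusted p = 3.26e-12), and without HGV replicate 3 the difference from HG was -1.75 (adjusted p = 4.35e-06). HP shares near-identical sequence with HPR, and its value is uncertain to that extent. SERPINA3, which encodes the protease inhibitor antichymotrypsin, had 8.90, 7.51 and 20.6 CPM in LG, 53.6, 42.3 and 42.3 in HG, 2.55, 1.43 and 2.46 in LGV and 23.6, 14.2 and 6.44 in HGV. In both genes LG replicate 3 was the highest of LG and HGV replicate 3 the lowest of HGV, as they also were for SOCS3. SERPINA3 rose by 1.91 in HG against LG and by 2.52 without LG replicate 3, and it fell by 1.65 in HGV against HG, where it differed by -1.29 without HGV replicate 3. Of the exon bases of SERPINA3, 31.7% are shared with another gene of the matrix on the same strand.

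The 4 acute phase genes with the STAT pattern before their start did not all move alike. FGA, the fibrinogen alpha chain, and CFB, complement factor B, rose by 0.94 and 1.11 in HG against LG and fell by 0.84 and 0.87 in HGV against HG. Of the exon bases of CFB, 42.3% are shared with a gene annotated on the same strand that is not in the matrix. AGT, angiotensinogen, rose by 0.50 and fell by 0.46, a fall that no longer passed without HG replicate 3 (adjusted p = 0.0660) or HGV replicate 3 (adjusted p = 0.0550). HAMP, the iron hormone hepcidin, had 0.748, 0.449 and 4.16 CPM in LG, 5.17, 8.55 and 7.17 in HG, 1.08, 0.422 and 0.374 in LGV and 17.9, 19.5 and 10.6 in HGV. It was the 1 gene of the list that rose in HGV against HG, by 1.20 (adjusted p = 0.00106), and in HGV against LGV by 4.66 (adjusted p = 1.52e-08), while in LGV against LG it differed by -1.53 (adjusted p = 0.0806). The latter value rested on LG replicate 3, without which it was 0.12 (adjusted p = 0.867). In HG against LG HAMP rose by 1.95, or by 3.61 without LG replicate 3, and without LG replicate 1 it no longer passed (1.64, adjusted p = 0.0671).

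ORM1 and ORM2, which encode the near-identical orosomucoids and whose reads may be split between them, were also unlike SOCS3 with glucose. ORM1 had 323 to 411 CPM in LG, 309 to 322 in HG, 121 to 172 in LGV and 68.1 to 83.6 in HGV. It differed by -0.20 in HG against LG (adjusted p = 0.239) and fell by 0.98 in HGV against LGV, by 1.31 in LGV against LG and by 2.06 in HGV against HG. The order of its group means, from LG and HG down to LGV and HGV, was that of IL6R. Other genes, among them STAT6, BCL3 and APOA2, had the same order, and a link to the receptor was not tested.

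**Figure D4:**
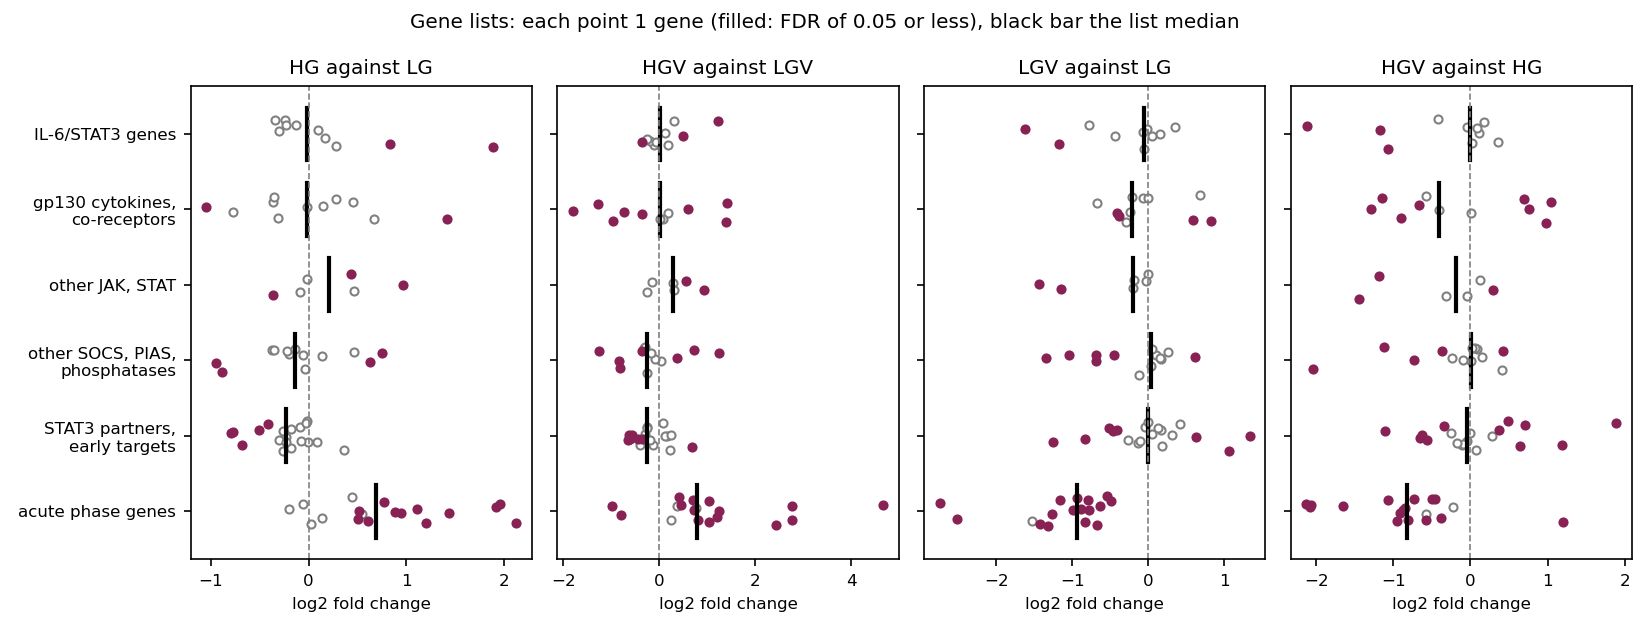
Log2 fold changes (x axis, a different range in each panel) of the 10 genes and of 5 lists around them, in a panel for each comparison. Each point is a gene, filled where the FDR was 0.05 or less, and the black bar is the list median; the acute phase genes have medians of 0.69 in HG against LG and -0.83 in HGV against HG, and the 10 pathway genes of -0.02 and -0.01.

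The genes most like IL6R over the 12 libraries, by Pearson's r of log2 CPM among 11953 genes, were MOCOS (0.987), SLC6A9 (0.984) and NUPR1 (0.984). For SOCS3 they were LINC00528 (0.963), SNRNP35 (0.954) and GDF7 (0.953), and for STAT3 they were PRPF4 (0.891), KDM1A (0.851) and ARPC1A (0.832). The libraries fall into 4 groups, and for IL6R and SOCS3 these values describe shared differences between groups more than between libraries of a group. The groups overlapped for STAT3 in every comparison, so that its values also describe differences between libraries of a group.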

How the data were processed

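RNA of HepG2 cells was sequenced in 12 libraries, 3 each of LG, HG, LGV and HGV. The authors made strand-marked poly(A) libraries, trimmed the reads, mapped them to GRCh37 (STAR) and assigned them to Ensembl genes (featureCounts). They deposited raw counts without normalization, with genes averaging under 10 reads per library left out. The strand setting of the counting is not given in the sources used here.

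Counts were tested with edgeR 4.0.16 (R 4.3.3) by TMM normalization and the quasi-likelihood F test, on genes whose mean count reached 10 in the libraries compared. P-values were adjusted by Benjamini-Hochberg over all genes tested, and a gene passed at an FDR of 0.05 or less. The interaction was fitted over all 12 libraries. The 95% intervals come from the same fits. Exon lengths, positions and promoter windows came from GENCODE 44 on GRCh37, which placed 97.47% of identifiers.

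The 10 genes and the lists were chosen with earlier results of these data known. Named list genes are up to 4 per list and comparison with the largest change among those that passed, and CEBPB, CFB, AGT and other genes named for contrast or for a promoter pattern were chosen after their values were seen. Alternatives were other size factors, DESeq2 1.42.0, other filters, an FDR of 0.01, 1 fit of all libraries, a replicate block and leaving out each library. The main transcript's length, and leaving out each library for the lists, were added after seeing the data. Some results that meet these rules are not reported here.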

Additional observations from a re-analysis of the deposited data

How the results depend on the processing

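The calls of SOCS3 (HG against LG, HGV against LGV and HGV against HG) and of IL6R and CEBPD in both VPA comparisons held under all alternatives run. The count of genes passing moved most with the threshold, to 1852 in HG against LG and 4263 in HGV against LGV at an FDR of 0.01, and for the interaction, where 7 genes passed, to 1 at that FDR, 1 with library size only, 13 with the replicate block and 162 with DESeq2, and the cause was not tested. Leaving out each library gave 1933 to 5338 genes and 1 to 4 of the 10 in HG against LG, 6083 to 7793 and 3 to 3 in HGV against HG, 4942 to 6986 and 2 to 3 in LGV against LG, 4516 to 7228 and 2 to 3 in HGV against LGV, and 1 to 217 and 0 to 0 for the interaction, with 217 without LG replicate 2. Scaling by library size only moved the median of all genes by 0.12 in HGV against HG and 0.16 in LGV against LG, and the share of calls that were higher from 48.6% to 62.6% in HG against LG, from 56.1% to 68.1% in HGV against HG and from 52.1% to 69.7% in LGV against LG. With it IL6ST became 0.087 in HGV against HG, JAK1, TYK2 and PIAS3 became 0.14, 0.10 and 0.11 in LGV against LG, PIAS3 became 0.00373 in HGV against LGV, and the IL6R interaction became -0.049. PIAS3 in HGV against HG became -0.016 with the size factors or the test of DESeq2, and the IL6R interaction became -0.016 with these and -0.020 with a filter of 1 CPM. Leaving out libraries turned the sign of values that had not passed, with ranges in HG against LG of -0.069 to 0.22 for IL6ST and -0.40 to 0.072 for SOCS2, in HGV against HG of -0.041 to 0.11 for PIAS3 and -0.17 to 0.12 for IL6ST, in LGV against LG of -0.069 to 0.084 for JAK1, -0.20 to 0.057 for TYK2 and -0.12 to 0.041 for PIAS3, in HGV against LGV of -0.21 to 0.016 for IL6ST and -0.17 to 0.00144 for PIAS3, and of -0.14 to 0.12 for the IL6R interaction. HAMP in LGV against LG ran from -2.17 to 0.12, with a change of sign without LG replicate 3. Libraries that share a replicate number are not paired by the labels, and their deviations correlated by -0.193 to 0.00996 in HG against LG, -0.139 to 0.244 in HGV against HG, -0.198 to 0.316 in LGV against LG and 0.0206 to 0.201 in HGV against LGV, so not every library was closest to its own number. With the replicate block 3351, 8229, 6971 and 7308 genes passed for HG against LG, for the VPA effect in high and in low glucose, and for HGV against LGV, beside 3813, 7456, 6638 and 6604 without, and no call among the 10 genes changed. SOCS2 is limited by its 9 to 28 reads per library.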

Other observations

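Cytosolic adaptors and receptor sheddases around gp130 were described in no comparison above. Of 9 such genes, all measured, 0 rose and 5 fell in HGV against LGV by edgeR (0 rose with DESeq2, and 1 with an unadjusted p under 0.05), and 0 rose and 2 fell in HG against LG (0 rose by either measure). SHC1, an adaptor that links receptors to the Ras pathway, fell by 0.83 in HG against LG and by 0.39 in HGV against LGV and rose by 0.50 in HGV against HG. ADAM17, a protease that sheds IL6R from the cell surface, fell by 0.40 in HG against LG and by 0.64 in HGV against LGV. ADAM10, another such protease, rose by 0.31 in LGV against LG. The number that fell in HG against LG, 2 with SHC1 and ADAM17, turned on single libraries. It was 1 without HG replicate 2, HG replicate 3, LG replicate 1 or LG replicate 2, and 3 without LG replicate 3. In LGV against LG 3 of the 9 rose and 0 fell, and in HGV against HG 3 rose and 2 fell.

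The negative acute phase genes, which fall in the acute phase response of the liver, did not mirror the induced ones. Of 8 genes, 2 rose and 1 fell in HG against LG (median 0.10), 5 rose and 1 fell in HGV against LGV (0.53), 0 rose and 5 fell in LGV against LG (-0.43), and 2 rose and 2 fell in HGV against HG (-0.13). RBP4, the retinol carrier, rose by 0.70 in HG against LG and fell with VPA by 0.69 in low and by 0.52 in high glucose. APOA1, the main apolipoprotein of HDL, rose by 0.48 in HG against LG and by 0.94 in HGV against LGV. APOA2, also of HDL, fell by 0.56 in HG against LG and by 0.99 and 1.01 with VPA in low and high glucose. TTR, the thyroxine carrier, rose by 0.51 in HGV against HG. The list holds ALB, APOA1, TTR and TF in common with the hepatocyte markers.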
